A study of Mus musculus with 12 samples.

Results

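A set of 10 genes of the Wnt pathway was followed through ribosomes captured in the cytosol and at the endoplasmic reticulum (ER) of mouse embryonic stem cells. The 6 membrane members were the Wnt secretion factors Wls and Porcn, the receptors Fzd2 and Fzd7 and the co-receptors Lrp5 and Lrp6. The 4 cytosolic members were Ctnnb1, Apc, Gsk3b and Dvl2. They were chosen by name for what their proteins do, with earlier results of these data known. All 10 were found once among the 55416 gene identifiers of the count tables and passed the filter on low counts. The cells were of the E14Tg2a.4 line, kept in serum and leukemia inhibitory factor, and in every group Rpl31, a protein of the large ribosomal subunit, was fused to FLAG, a TEV cleavage site and an AviTag. ALIBi, a biotinylation system supplied as N-terminal and C-terminal fragments on transfected plasmids, was targeted to the ER or to the cytosol, and biotinylated ribosomes were affinity purified in the presence of cycloheximide. The 4 groups were ER ribosome-bound RNA, cytosol ribosome-bound RNA, ER whole-cell RNA and cytosol whole-cell RNA, with 3 replicates each, and the whole-cell RNA was the lysate before purification. The comparisons address which mRNAs are carried by ribosomes at the ER and which by ribosomes in the cytosol.

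In Wnt signalling, a Wnt protein is acylated in the ER by Porcn and escorted to the cell surface by Wls. At the receiving cell it binds a Frizzled receptor together with Lrp5 or Lrp6. Dishevelled proteins such as Dvl2 pass the signal on, and the destruction complex, in which Apc is a scaffold and Gsk3b a kinase, stops marking beta-catenin (Ctnnb1) for degradation. Proteins that enter the ER are usually recognised during translation by a hydrophobic signal sequence or membrane segment, whereas soluble cytosolic proteins can be made on free ribosomes. Wnt signalling through beta-catenin is known to favour self-renewal of mouse embryonic stem cells.

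Between 21.1 and 26.9 M reads per library were counted in genes. All 10 pluripotency markers examined were tested, and their summed level was 13791.9 to 14410.1 CPM (counts relative to scaled library size) in ER ribosome-bound RNA, 10741.4 to 10942.6 in cytosol ribosome-bound RNA, 8778.9 to 9141.1 in ER whole-cell RNA and 8765.7 to 8950.7 in cytosol whole-cell RNA. Of these markers, Tdgf1 averaged 4647.3 CPM in ER against 1284.4 CPM in cytosol ribosome-bound RNA, and Fgf4 882.1 against 305.0 CPM. Sox2 averaged 806.4 against 803.6 CPM. Each of the others averaged less in ER ribosome-bound RNA, such as Pou5f1 with 1389.6 against 1640.7 CPM. The trophoblast markers Tpbpa and Prl3d1 were at 0 in all 12 libraries, and the 6 trophoblast markers together reached at most 2.83 CPM. Neural markers summed to 68.4 to 83.0 CPM over the 12 libraries, mesoderm markers to 15.5 to 23.4 CPM and endoderm markers to 8.45 to 16.1 CPM. Fibroblast markers, which mostly encode secreted or membrane proteins, summed to 88.7 to 92.9 CPM in ER ribosome-bound RNA and to 30.5 to 37.9 CPM in the other groups, and 4 of 7 were tested. Their part in the results was not tested; in whole-cell RNA they summed to 35.1 to 35.8 CPM with ER targeting and 35.2 to 37.9 CPM with cytosol targeting. In these bulk libraries, fewer cells with an mRNA and less of it per cell cannot be told apart.

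The start of the coding sequence is shown for 5 of the membrane members because their proteins enter the ER, with Ctnnb1 as a cytosolic counterpart. The lines give the first 45 codons of the principal transcript in the GENCODE M21 annotation on GRCm38, and capitals mark the 11 codons whose residues had the highest mean hydropathy in the first 50 residues, where that mean was at least 2.0 on the Kyte-Doolittle scale.
Wls (chromosome 3, exons 1 and 2): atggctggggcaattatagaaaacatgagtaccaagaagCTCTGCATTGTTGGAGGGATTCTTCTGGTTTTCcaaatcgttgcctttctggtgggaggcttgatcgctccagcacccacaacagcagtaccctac
Porcn (chromosome X, exon 2): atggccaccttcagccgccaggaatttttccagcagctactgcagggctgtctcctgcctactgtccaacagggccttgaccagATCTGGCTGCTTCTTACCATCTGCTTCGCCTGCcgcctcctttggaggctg
Fzd7 (chromosome 1, exon 1): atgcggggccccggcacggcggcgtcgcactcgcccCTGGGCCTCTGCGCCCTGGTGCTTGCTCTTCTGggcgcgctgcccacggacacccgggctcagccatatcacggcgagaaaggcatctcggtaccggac
Lrp5 (chromosome 19, exons 1 and 2): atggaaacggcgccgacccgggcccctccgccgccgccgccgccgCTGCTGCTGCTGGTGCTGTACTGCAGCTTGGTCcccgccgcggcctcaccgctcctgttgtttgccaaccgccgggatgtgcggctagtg
Lrp6 (chromosome 6, exons 1 and 2): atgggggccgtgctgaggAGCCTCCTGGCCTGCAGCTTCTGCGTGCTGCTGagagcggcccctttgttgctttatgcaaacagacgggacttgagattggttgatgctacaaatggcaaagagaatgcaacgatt
Ctnnb1 (chromosome 9, exons 2 and 3): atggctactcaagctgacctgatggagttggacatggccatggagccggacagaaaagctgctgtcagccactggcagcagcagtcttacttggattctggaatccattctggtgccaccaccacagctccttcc
All 6 membrane members had such a window, with a mean hydropathy of 2.45 in Fzd2 and 3.03 in Wls as the lowest and the highest. The 4 cytosolic members peaked between 0.17 in Apc and 0.72 in Dvl2, so Ctnnb1 carries no capitals.

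All 6 membrane members rose in ER ribosome-bound RNA relative to cytosol ribosome-bound RNA, each by more than 3-fold. Their log2 ratios lay between 1.65 for Fzd7 and 2.14 for Lrp5, with a median of 1.84. The 4 cytosolic members lay between -0.22 for Ctnnb1 and 0.27 for Apc, with a median of -0.14 that became 0.11 when libraries were scaled on genes for cytosolic proteins. Of all 16221 tested genes, 29.1% rose and 24.6% fell at an adjusted p under 0.05 in the quasi-likelihood test of edgeR with adjustment by Benjamini-Hochberg, and 18.1% rose by more than 2-fold. The median log2 ratio of all tested genes was 0.00; scaling on cytosolic genes raised it by 0.25 and the share of called genes that were higher was then 94.2%, against 54.2% with the standard scaling. The difference between the medians of both classes was 1.98. For each library, the median log2 CPM of the cytosolic members was subtracted from that of the membrane members. Since CPM is not per length and a median of levels rests on the middle genes, only the direction of its change between groups is read. It was 0.33, 0.39 and 0.31 in ER ribosome-bound RNA, -1.58, -1.59 and -1.62 in cytosol ribosome-bound RNA, -1.04, -1.01 and -1.02 in ER whole-cell RNA and -1.05, -1.06 and -1.03 in cytosol whole-cell RNA. Ribosome-bound libraries of both targetings thus lay on opposite sides of the whole-cell libraries, with no overlap. The size of these steps is not that of the ratios. Between the class medians of the log2 ratios, the difference was 1.57 for ER ribosome-bound over ER whole-cell RNA. It was -0.25 for cytosol ribosome-bound over cytosol whole-cell RNA.

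**Figure D1:**
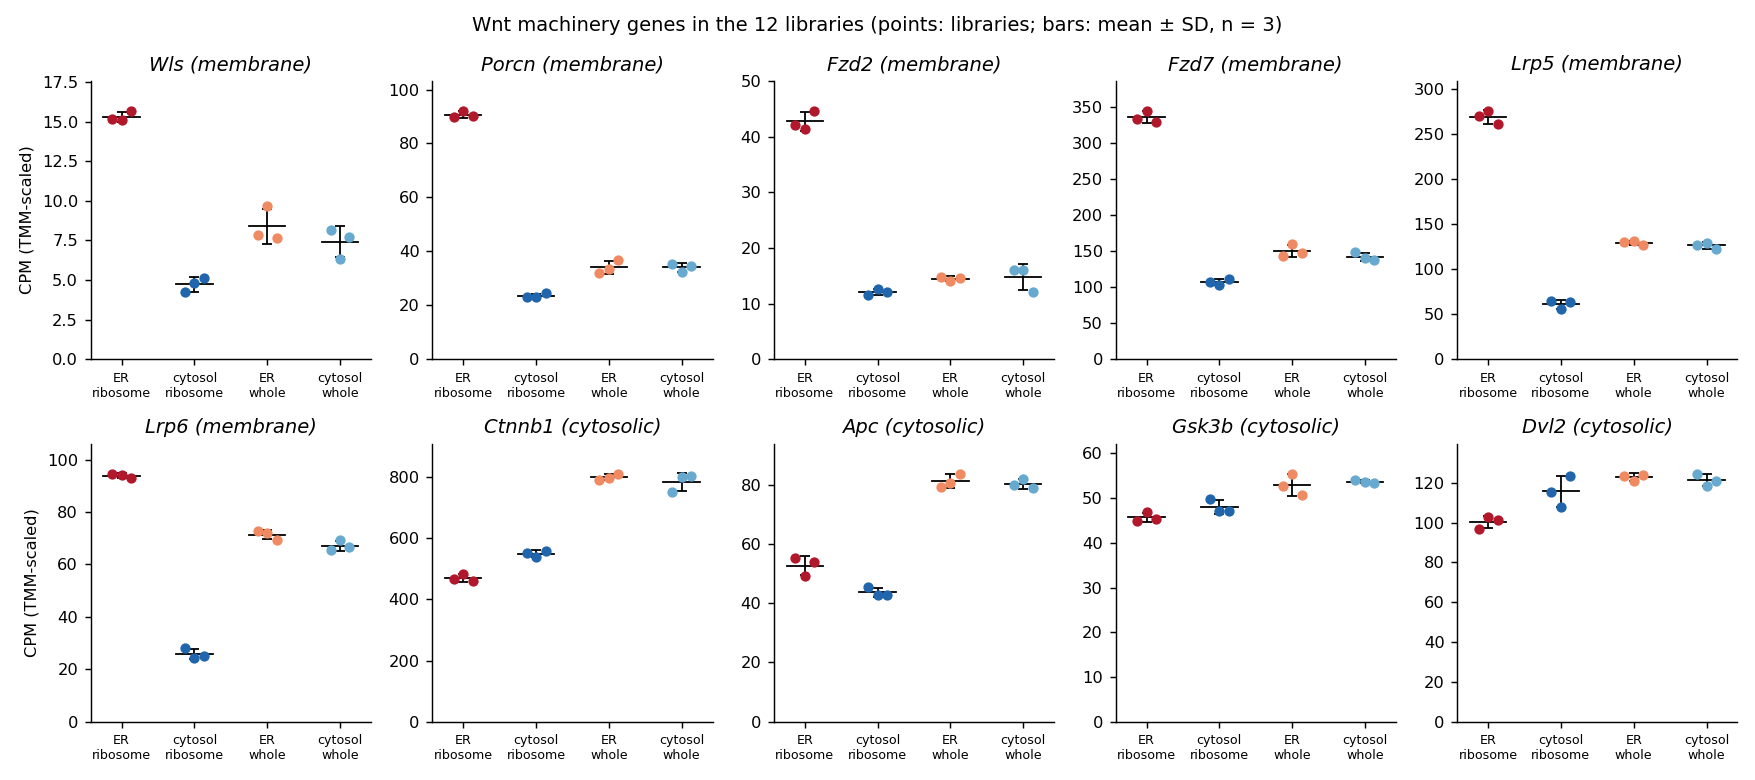
TMM-scaled CPM (vertical axes, linear, from 0) of the 10 genes in each library, by group along the horizontal axis; points are libraries and bars the mean ± SD of 3. The 6 membrane members were highest in ER ribosome-bound RNA and lowest in cytosol ribosome-bound RNA, as for Lrp5 with means of 269.0 and 61.0 CPM, and the 4 cytosolic members averaged more in both whole-cell groups than in either ribosome-bound group.

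Both secretion factors rose in ER over cytosol ribosome-bound RNA. Porcn, the membrane-bound O-acyltransferase that adds palmitoleate to Wnt proteins, was at 89.9, 92.1 and 90.0 CPM in ER ribosome-bound RNA, against 23.1, 22.9 and 24.4 CPM in cytosol ribosome-bound RNA. The lowest ER library was thus far above the highest cytosol library, and the log2 ratio was 1.95 (SE 0.052, adjusted p = 8.1e-28, edgeR). Wls, the multipass carrier of acylated Wnt proteins, was the lowest of the 10 in reads, with 110 to 381 counts per ribosome-bound library. It was at 15.2, 15.1 and 15.7 CPM in ER ribosome-bound RNA, against 4.21, 4.84 and 5.12 CPM in cytosol ribosome-bound RNA. These groups did not overlap either, and the log2 ratio was 1.70 with the widest error of the 10 (SE 0.106, adjusted p = 1.8e-16). The log2 ratio of Wls to Porcn was -2.56 ± 0.042 in ER ribosome-bound RNA and -2.32 ± 0.12 in cytosol ribosome-bound RNA (SD, n = 3 each). Libraries of both captures did not overlap in this ratio, at -2.61 to -2.52 for ER and -2.45 to -2.24 for cytosol. In whole-cell RNA the ratio was -2.02 ± 0.231 with ER targeting and -2.21 ± 0.131 with cytosol targeting. The gap between captures was near the larger of these SDs and was not tested.

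Both Frizzled receptors, each with a membrane bundle typical of the family and an extracellular domain that binds Wnt, rose together although their levels were far apart. Fzd7 was at 334.0, 344.9 and 329.1 CPM in ER ribosome-bound RNA, against 107.1, 102.2 and 110.8 CPM in cytosol ribosome-bound RNA. Fzd2 was at 42.2, 41.5 and 44.7 CPM in ER ribosome-bound RNA, against 11.5, 12.6 and 12.1 CPM in cytosol ribosome-bound RNA. In neither gene did the groups overlap; the log2 ratio was 1.65 (SE 0.041) for Fzd7 and 1.82 (SE 0.074) for Fzd2. Their proteins were identical at 448 of 564 aligned residues (79.4%). The authors' handling of reads shared between such paralogs is not given in the sources used here. The other 8 tested Frizzled genes rose as well, between 0.98 for Fzd8 (SE 0.109) and 1.82 for Fzd9 (SE 0.072). Fzd5, at 167.2 CPM in ER ribosome-bound RNA and 53.7 CPM in cytosol ribosome-bound RNA, was next to Fzd7 the most abundant of them in reads, with a log2 ratio of 1.64 (SE 0.040).

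The co-receptors Lrp5 and Lrp6, large single-pass proteins of the LDL receptor family, had the highest and the third highest ratio of the 10. Lrp5 was at 269.8, 275.9 and 261.1 CPM in ER ribosome-bound RNA, against 64.4, 55.3 and 63.2 CPM in cytosol ribosome-bound RNA. Its log2 ratio of 2.14 (SE 0.044, adjusted p = 2.7e-31) placed it at percentile 98.1 of all tested genes. Lrp6 was at 94.7, 94.0 and 93.1 CPM in ER ribosome-bound RNA, against 28.0, 24.4 and 25.1 CPM in cytosol ribosome-bound RNA, with a log2 ratio of 1.86 (SE 0.049, adjusted p = 4.3e-28). The balance between both differed by fraction. The log2 ratio of Lrp6 to Lrp5 was -1.51, -1.55 and -1.49 in ER ribosome-bound RNA and -1.20, -1.18 and -1.33 in cytosol ribosome-bound RNA, against -0.83, -0.86 and -0.87 in ER whole-cell RNA and -0.96, -0.90 and -0.88 in cytosol whole-cell RNA. Ribosome-bound RNA of either capture therefore held less Lrp6 per Lrp5 than whole-cell RNA, without overlap between the fractions. Their principal transcripts are 9368 bases for Lrp6 and 5161 for Lrp5, and the part of length in this was not tested. The proteins shared 1112 of 1598 aligned residues (69.6%).

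Lrp6 and Apc have long transcripts of 9368 and 12811 bases and stood at similar counts in whole-cell RNA, which makes them a direct pair of a membrane and a cytosolic member. The log2 ratio of Lrp6 to Apc was 0.83 ± 0.086 in ER ribosome-bound RNA, -0.76 ± 0.056 in cytosol ribosome-bound RNA, -0.19 ± 0.08 in ER whole-cell RNA and -0.26 ± 0.026 in cytosol whole-cell RNA (SD, n = 3 each). The order of this pair thus turned round between the captures.

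**Figure D2:**
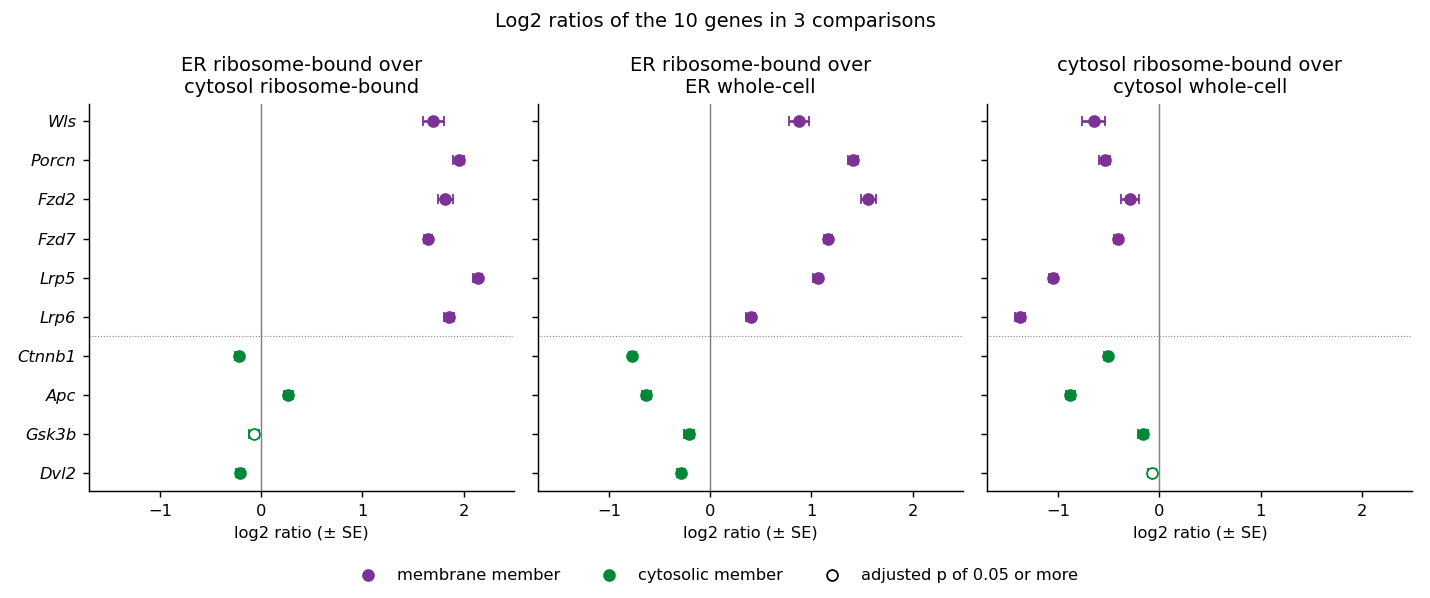
Log2 ratios with their SE (horizontal axes) of the 10 genes in 3 comparisons, membrane members in purple above the dotted line and cytosolic members in green below it; open points have an adjusted p of 0.05 or more. The membrane members lie at 1.65 to 2.14 between captures, at 0.40 to 1.56 for ER capture over whole-cell RNA and at -1.38 to -0.29 for cytosol capture over whole-cell RNA; the signs of Ctnnb1 and Dvl2 between captures and of Gsk3b between captures and over ER whole-cell RNA turn with scaling on cytosolic genes.

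The cytosolic members differed little between captures, and their direction depended on the scaling. Ctnnb1, the transcriptional co-activator and adherens junction protein at the centre of the pathway, was at 466.8, 484.0 and 460.5 CPM in ER ribosome-bound RNA, against 552.7, 537.2 and 559.4 CPM in cytosol ribosome-bound RNA. The groups did not overlap, and Ctnnb1 fell by 0.22 on the log2 scale (SE 0.034, adjusted p = 6.1e-07), but with scaling on cytosolic genes its ratio was 0.02 (adjusted p = 0.56). Dvl2, which carries the signal from the receptors, was at 96.9, 102.8 and 101.3 CPM in ER ribosome-bound RNA, against 115.5, 108.0 and 123.5 CPM in cytosol ribosome-bound RNA, and fell by 0.21 (SE 0.042, adjusted p = 7.2e-05), a ratio that became 0.04 (adjusted p = 0.41) with cytosolic scaling and -0.32 (adjusted p = 5.8e-08) without cytosol ribosome-bound replicate 2. For both genes the sign of the difference thus rested on the scaling. Dvl2 shares 18.3% of its exon bases in that annotation with Acadvl on the other strand, which reached 27.1 CPM, and without a stated strand setting reads in the shared stretch cannot be told apart; Ctnnb1 likewise shares 14.6% with Ulk4, at up to 4.29 CPM.

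Gsk3b, the kinase that phosphorylates beta-catenin, was at 44.8, 46.8 and 45.3 CPM in ER ribosome-bound RNA, against 49.7, 47.2 and 47.1 CPM in cytosol ribosome-bound RNA. The groups lay next to each other without overlap, and the log2 ratio of -0.07 (SE 0.047) missed the threshold at an adjusted p of 0.21. It passed the threshold as lower in 11 of 19 alternatives, at -0.15 to -0.11: with RLE size factors, without mitochondrially encoded genes, with no filter on low counts, and without cytosol ribosome-bound replicate 2, any 1 of the cytosol whole-cell replicates, or replicate 2 or 3 of either ER group. With cytosolic scaling it passed as higher, at 0.18 (adjusted p = 0.0025). Apc was at 55.2, 49.2 and 53.8 CPM in ER ribosome-bound RNA, against 45.4, 42.9 and 42.7 CPM in cytosol ribosome-bound RNA. All 3 ER libraries were above all 3 cytosol libraries, and Apc rose by 0.27 on the log2 scale (SE 0.048, adjusted p = 1e-05). It rose under each scaling tried, by 0.52 with cytosolic genes, and its ratio was below that of any membrane member. Without ER ribosome-bound replicate 1 it rose by 0.17 (adjusted p = 0.0065).

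Against whole-cell RNA of the same targeting, the ER and cytosol captures moved the membrane members in opposite directions. All 6 rose in ER ribosome-bound RNA over ER whole-cell RNA, by a median log2 ratio of 1.11, where 32.5% of tested genes rose and 30.6% fell and the median of all was 0.01. All 6 fell in cytosol ribosome-bound RNA relative to cytosol whole-cell RNA, by a median log2 ratio of -0.59, where 20.8% of tested genes rose and 33% fell and the median was -0.05. Cytosol whole-cell libraries decided the call of Fzd2 against cytosol whole-cell RNA: its log2 ratio of -0.29 (adjusted p = 0.0036) was -0.17 (adjusted p = 0.13) without cytosol whole-cell replicate 1 and -0.18 (adjusted p = 0.11) without replicate 2. Scaling on cytosolic genes shifted the median of all genes by 0.26 in the ER comparison, where 80.3% of called genes were then higher, against 51.5%; in the cytosol comparison it shifted it by -0.01.

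The 6 membrane members differed in how the change was divided between the captures. Fzd2 was the most enriched at the ER and the least depleted in the cytosol capture. It was at 14.8, 14 and 14.6 CPM in ER whole-cell RNA and 16.1, 16.1 and 12 CPM in cytosol whole-cell RNA, so that its log2 ratio was 1.56 (SE 0.073) for the ER capture and -0.29 (SE 0.085) for the cytosol capture. Lrp6 was at the other end. It was at 72.8, 72.0 and 69.3 CPM in ER whole-cell RNA and 65.5, 69.4 and 66.5 CPM in cytosol whole-cell RNA, which gave 0.40 (SE 0.044) for the ER capture and -1.38 (SE 0.050) for the cytosol capture. The value for the cytosol capture stood at percentile 1.4 of all tested genes. Lrp5, at 129.6, 130.9 and 126.4 CPM in ER whole-cell RNA and 127.0, 129.4 and 122.1 CPM in cytosol whole-cell RNA, stood nearest to it with 1.06 (SE 0.041) for the ER capture and -1.05 (SE 0.044) for the cytosol capture. Between these ends, Porcn had 1.41 (SE 0.050) for the ER capture and -0.54 (SE 0.057) for the cytosol capture. Fzd7 had 1.16 (SE 0.040) for the ER capture and -0.41 (SE 0.042) for the cytosol capture, and Wls had 0.88 (SE 0.099) and -0.65 (SE 0.118) for the same captures. The Lrp genes thus stood out by how far they lay below whole-cell RNA in the cytosol capture, and Fzd2 and Porcn by how far they lay above it in the ER capture.

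The cytosolic members fell, or did not pass the test, in both captures. Of all tested genes, 32.5% rose and 30.6% fell for the ER capture, and 20.8% rose and 33% fell for the cytosol capture. In ER ribosome-bound RNA over ER whole-cell RNA all 4 fell, by 0.77 for Ctnnb1 (SE 0.034), 0.63 for Apc (SE 0.046), 0.29 for Dvl2 (SE 0.042) and 0.21 for Gsk3b (SE 0.047) on the log2 scale. With cytosolic scaling the ratio was -0.03 for Dvl2 (adjusted p = 0.55) and 0.05 for Gsk3b (adjusted p = 0.37), and the calls of Ctnnb1 and Apc held. In cytosol ribosome-bound RNA over cytosol whole-cell RNA, Apc fell by 0.88 (SE 0.046), Ctnnb1 by 0.51 (SE 0.034) and Gsk3b by 0.16 (SE 0.046), and Dvl2 had a ratio of -0.07 (SE 0.041, adjusted p = 0.16). The call of Gsk3b was lost in 7 of 20 alternatives, at -0.12 to -0.09: without mitochondrially encoded genes, with no filter on low counts, with only the libraries compared, and without cytosol ribosome-bound replicate 2 or any 1 of the cytosol whole-cell replicates. Dvl2 passed the threshold at -0.12 (adjusted p = 0.024) without cytosol ribosome-bound replicate 3. Beta-catenin mRNA was at 791.7, 796.4 and 811.3 CPM in ER whole-cell RNA and 751.2, 800.7 and 803.0 CPM in cytosol whole-cell RNA, above every ribosome-bound library. Apc was at 79.1, 80.7 and 83.8 CPM in ER whole-cell RNA and 79.9, 81.9 and 78.8 CPM in cytosol whole-cell RNA, also above every ribosome-bound library. Since CPM is a share of the library, a fall here is a smaller share of the captured mRNA than of the whole-cell mRNA.

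**Figure D3:**
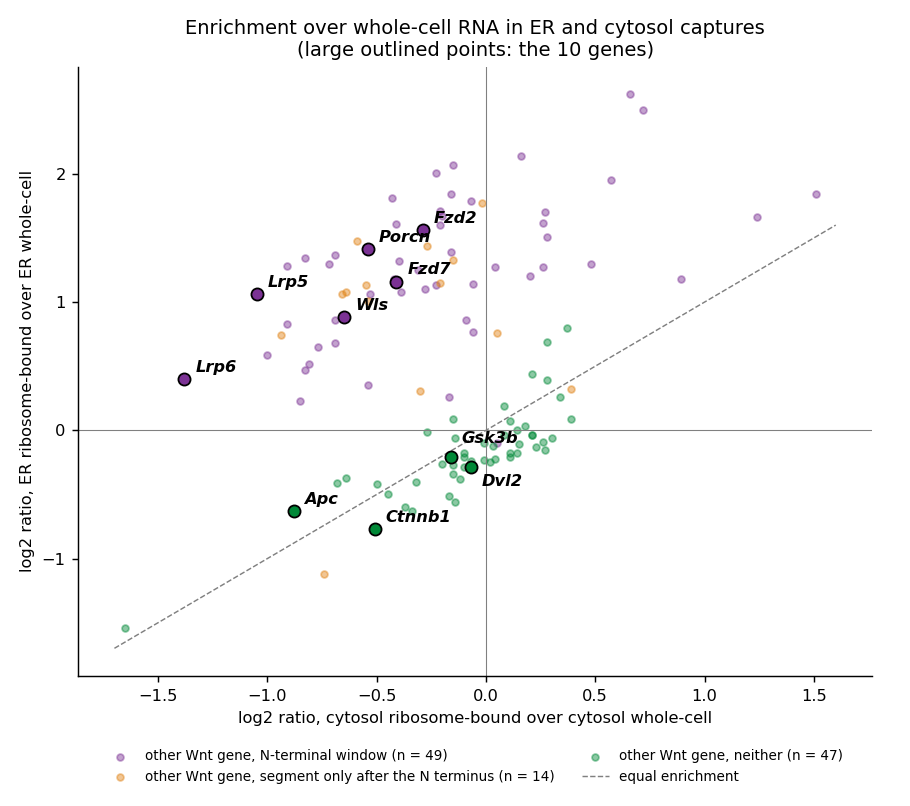
Log2 ratio of ER ribosome-bound over ER whole-cell RNA (vertical axis) against that of cytosol ribosome-bound over cytosol whole-cell RNA (horizontal axis) for the 10 genes (large, outlined) and the 110 other tested Wnt pathway genes (small), coloured by predicted hydrophobic segments; the dashed line marks equal enrichment. The membrane members lie far above the line, with Fzd2 at 1.56 and -0.29 and Lrp6 at 0.40 and -1.38, and the cytosolic members lie close to it, on a side that turns with scaling on cytosolic genes for Ctnnb1, Dvl2 and Gsk3b.

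The difference of both enrichments, which corrects each capture for its own whole-cell RNA, was positive for all 6 membrane members and called in each, between 1.53 for Wls (SE 0.154) and 2.11 for Lrp5 (SE 0.061). Over all tested genes it was called as higher in 24.8% and as lower in 18.6%. Among the cytosolic members it was lower for Ctnnb1 at -0.25 (SE 0.048) and for Dvl2 at -0.22 (SE 0.059), but with cytosolic scaling neither passed, at 0.02 for Ctnnb1 (adjusted p = 0.78) and 0.05 for Dvl2 (adjusted p = 0.57). Gsk3b had -0.05 (SE 0.066, adjusted p = 0.61), and with cytosolic scaling it passed as higher, at 0.22 (adjusted p = 0.0083). Apc was higher at 0.25 (SE 0.065, adjusted p = 0.0018), a call that was lost without ER ribosome-bound replicate 1, at 0.16 (adjusted p = 0.056). Cytosolic scaling shifted the median of all genes by 0.27, with 96.7% of called genes higher, against 57.2%.

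No difference between the targetings passed the test in whole-cell RNA. No tested gene was called between ER whole-cell and cytosol whole-cell RNA (0% higher, 0% lower) with edgeR and none with DESeq2. In edgeR 634 genes had an unadjusted p under 0.05, fewer than that threshold would pass if no gene differed. The 10 members had log2 ratios between -0.03 for Fzd2 (SE 0.084) and 0.17 for Wls (SE 0.109), and Wls overlapped between 7.85, 9.69 and 7.68 CPM in ER whole-cell RNA and 8.18, 6.30 and 7.75 CPM in cytosol whole-cell RNA. Porcn averaged 34 ± 2.41 CPM with ER targeting and 34 ± 1.59 CPM with cytosol targeting (SD, n = 3 each), and Fzd7 averaged 150.1 ± 8.61 CPM with ER targeting and 142.2 ± 5.7 CPM with cytosol targeting.

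Per kilobase of principal transcript, levels in ER whole-cell RNA ran over a wide range, with Ctnnb1 at the upper end and Wls at the lower. Ctnnb1 led with 220.8 ± 2.82 CPM per kb, followed by Dvl2 with 41.4 ± 0.609, Fzd7 with 33.1 ± 1.9, Lrp5 with 25 ± 0.444 and Porcn with 18.2 ± 1.29 CPM per kb (SD, n = 3 each). Then came Lrp6 with 7.62 ± 0.198, Gsk3b with 6.38 ± 0.292, Apc with 6.34 ± 0.188, Fzd2 with 3.95 ± 0.108 and Wls with 2.36 ± 0.313 CPM per kb. Gsk3b and Apc were the only neighbours in this order whose means differed by less than their SDs. In ER ribosome-bound RNA, Fzd7 with 74.1, Lrp5 with 52.1 and Porcn with 48.4 CPM per kb stood above Dvl2 with 33.8 CPM per kb, and Wls with 4.31 ± 0.0825 could not be placed above Apc with 4.11 ± 0.243 CPM per kb. In cytosol ribosome-bound RNA, Dvl2 with 39.0 CPM per kb was second to Ctnnb1 with 151.7, and Porcn with 12.5 ± 0.435 and Lrp5 with 11.8 ± 0.967 CPM per kb were not apart, nor were Apc with 3.41 ± 0.118 and Fzd2 with 3.29 ± 0.151 CPM per kb. Which transcript the cells use was not measured, so this order rests on the annotated lengths.

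Other genes of the pathway were taken from lists by role. In ER over cytosol ribosome-bound RNA, 29.1% of all tested genes rose and 24.6% fell. Genes for proteins that enter the ER rose with the membrane members in ER over cytosol ribosome-bound RNA. Of 31 tested receptors and membrane regulators, 30 rose, with a median log2 ratio of 1.45, and Lypd6 had 0.55 (adjusted p = 0.076). The 3 most abundant of them were Cdh1, the cadherin that holds beta-catenin at the membrane, with 2.18 (SE 0.034), Ptk7, a pseudokinase co-receptor of planar polarity signalling, with 2.15 (SE 0.038), and Mesd, the ER chaperone needed to fold Lrp5 and Lrp6, with 2.23 (SE 0.041). Mesd averaged 390.9 ± 1.79 CPM in ER ribosome-bound RNA and 83.1 ± 4.69 CPM in cytosol ribosome-bound RNA. All 8 tested relatives of Porcn among the membrane-bound O-acyltransferases (MBOAT) rose, with a median of 1.63, among them Soat1, which esterifies cholesterol, with 1.70 (SE 0.047), and the lysophospholipid acyltransferases Mboat7 with 1.55 (SE 0.050) and Lpcat3 with 2.12 (SE 0.049).

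All 10 tested secreted modulators rose between captures, with a median of 1.85, where 29.1% of all tested genes rose. Sfrp1 and Sfrp2, which bind Wnt proteins outside the cell, reached 1.87 (SE 0.037) and 2.21 (SE 0.040), and Dkk3, of the Dickkopf family, 2.28 (SE 0.051). Sfrp1 averaged 395.6 ± 10.9 CPM in ER ribosome-bound RNA and 108.3 ± 4.75 CPM in cytosol ribosome-bound RNA. Of 19 Wnt ligands 11 were tested; the other 8 had at most 12 counts in any library. Of the tested ligands 9 rose, with a median over the 11 of 1.33, and Wnt3a with 0.90 (adjusted p = 0.053) and Wnt6 with 0.33 (adjusted p = 0.16) did not pass. Wnt7b, the ligand with most reads, averaged 33 ± 1.73 CPM in ER ribosome-bound RNA and 19.6 ± 1.52 CPM in cytosol ribosome-bound RNA and rose by 0.75 (SE 0.064). Wnt9a rose by 1.33 (SE 0.083) and Wnt3 by 1.83 (SE 0.134).

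In cytosol ribosome-bound RNA over cytosol whole-cell RNA, 20.8% of all tested genes rose and 33% fell. Of the 11 tested ligands, 6 rose in this comparison, or 5 with cytosolic scaling, where Wnt3a missed the threshold, and 1, Wnt9a, fell, at -0.23 (adjusted p = 0.032). Wnt7b averaged 19.6 ± 1.52 CPM in cytosol ribosome-bound RNA and 14 ± 0.758 CPM in cytosol whole-cell RNA and rose by 0.48 (SE 0.072), and Wnt3 rose by 0.66 (SE 0.179). The other 4 were Wnt3a, Wnt4, Wnt6 and Wnt7a, at 0.57 to 1.51, with at most 2.94 CPM in a cytosol ribosome-bound library. Of the 31 receptors and membrane regulators, 22 fell in this comparison, with a median of -0.40, and Tpbg, a leucine-rich repeat inhibitor of the pathway, rose by 0.27. All 8 MBOAT genes fell, with a median of -0.61, as the 6 membrane members did. In ER ribosome-bound over ER whole-cell RNA, 32.5% of all tested genes rose. There all 11 ligands rose, with a median of 1.51, as did all 10 secreted modulators with 1.75, 30 of 31 receptors and membrane regulators with 1.18 and all 8 MBOAT genes with 1.06. Ligands and receptors were not tested against each other as lists.

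**Figure D4:**
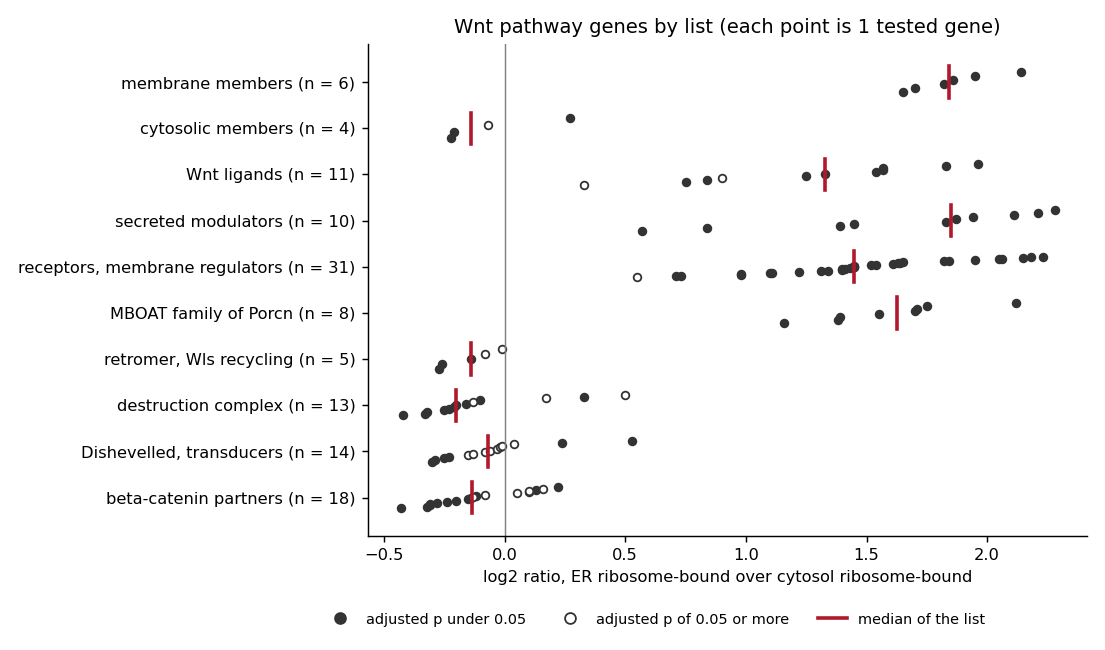
Log2 ratio of ER over cytosol ribosome-bound RNA (horizontal axis) for each tested gene of the members and of 8 Wnt pathway lists (rows); filled points have an adjusted p under 0.05 and red bars are list medians. The medians of lists whose proteins enter the ER lie between 1.33 and 1.85 and those of the other lists between -0.20 and -0.07, which turn to between 0.05 and 0.18 with scaling on cytosolic genes.

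Lists of cytosolic and nuclear pathway proteins stayed near the level of the cytosolic members in ER over cytosol ribosome-bound RNA, and the sign of their medians turned with cytosolic scaling in each. Over all tested genes 24.6% fell and 29.1% rose. Of 13 other genes of the destruction complex and its regulators, 9 fell and Tnks2 rose, with a median of -0.20, which became 0.05 with 5 higher and 1 lower under cytosolic scaling. Csnk1a1, the priming kinase for beta-catenin, had -0.16 (SE 0.034) and Ppp2ca, a phosphatase subunit, -0.20 (SE 0.035), whereas Tnks2, which marks Axin proteins for degradation, had 0.33 (SE 0.033, adjusted p = 7.2e-11). Tnks2 averaged 379.5 ± 2.51 CPM in ER ribosome-bound RNA and 301.3 ± 10.7 CPM in cytosol ribosome-bound RNA, while its relative Tnks had -0.32 (SE 0.051). Gsk3a, the paralog of Gsk3b, had -0.10 (SE 0.041, adjusted p = 0.033), and Apc2, the paralog of Apc, had 0.50 (SE 0.270, adjusted p = 0.12) at means of 1.22 CPM in ER ribosome-bound RNA and 0.864 CPM in cytosol ribosome-bound RNA. Axin1, the limiting scaffold of the complex, had -0.33 (SE 0.042). With cytosolic scaling Csnk1a1 and Gsk3a passed as higher instead, at 0.09 (adjusted p = 0.019) for Csnk1a1 and 0.15 (adjusted p = 0.0017) for Gsk3a. Apc2 also passed as higher with that scaling, at 0.75 (adjusted p = 0.019, edgeR). Ppp2ca at 0.05 (adjusted p = 0.21), Axin1 at -0.08 (adjusted p = 0.13) and Tnks at -0.07 (adjusted p = 0.26) then did not pass, while Tnks2 still rose, by 0.58.

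Among 14 genes of Dishevelled proteins and other cytosolic transducers, 4 fell (Dvl3, Csnk1d, Csnk1e and Frat2) and 2 rose, where 24.6% of all tested genes fell and 29.1% rose. Their median of -0.07 became 0.18, with 8 higher and 0 lower, under cytosolic scaling. Dvl3 had -0.29 (SE 0.060) and Dvl1 -0.13 (SE 0.057, adjusted p = 0.054), beside -0.21 for Dvl2; with cytosolic scaling Dvl3 had -0.05 (adjusted p = 0.56) and Dvl1 0.12 (adjusted p = 0.087). The 2 that rose were Nkd2, a Dishevelled-binding protein known to be myristoylated and to travel with exocytic vesicles, with 0.53 (SE 0.082), and Ccdc88c, another Dishevelled-binding protein, with 0.24 (SE 0.055). Nkd2 was at 18.6, 18.0 and 18.3 CPM in ER ribosome-bound RNA, against 11.6, 14.1 and 12.5 CPM in cytosol ribosome-bound RNA. Of 18 partners of beta-catenin, 10 fell and 2 rose, with a median of -0.13 that became 0.12, with 6 higher and 1 lower, under cytosolic scaling. Ctnna1, which links beta-catenin to actin, had -0.31 (SE 0.036), or -0.06 (adjusted p = 0.087) with cytosolic scaling. Tcf7, a DNA-binding partner, had -0.43 (SE 0.037) and still fell, by 0.19, with cytosolic scaling, and the co-repressor Tle3 0.13 (SE 0.044) and the acetyltransferase Crebbp 0.22 (SE 0.065) rose. Of the 5 retromer genes, whose products return Wls from endosomes, Snx3, Vps35 and Vps26b fell, with a list median of -0.14 that became 0.10 with 3 higher and 0 lower under cytosolic scaling. The genes named here as exceptions were chosen after their values were seen.

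The feature that the membrane members shared beyond their role was the hydrophobic window near the N terminus, followed in all 6 by at least 1 further hydrophobic segment. A segment was a stretch whose 19-residue windows averaged at least 1.6. Porcn had 5 segments, Wls 4, Fzd2 5, Fzd7 6, and Lrp5 and Lrp6 2 each, whereas the 4 cytosolic members had 0. Of 14124 tested genes with a coding sequence, 2931 (20.8%) had an N-terminal window, and their median log2 ratio of ER over cytosol ribosome-bound RNA was 1.47, with quartiles of 0.88 and 1.86. The 8780 genes with neither a window nor a segment had a median of -0.12, with quartiles of -0.25 and 0.03. A window together with at least 2 segments, as in all 6 membrane members, was found in 1311 genes (9.28%), with a median of 1.56. A window or segment is a property of the letters only. It does not show that a signal sequence is used or how often a protein crosses the membrane.

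Among the 110 other tested pathway genes, 49 had the N-terminal window. In ER over cytosol ribosome-bound RNA, 29.1% of all tested genes rose and 24.6% fell. Of the 49, 45 rose, with a median of 1.45 over the 49. The 4 that did not pass were Wnt3a, Wnt6, Lypd6 and Vps29, a soluble retromer subunit with a ratio of -0.08 (SE 0.042) despite its window; with cytosolic scaling all 49 passed as higher, Vps29 at 0.17 (adjusted p = 0.0011). A further 14 had a segment only after the N terminus, of which 12 rose, with a median of 1.41. They included Vangl2, a planar polarity protein, with 1.65, and Soat1, as well as Tle2 with -0.13 and Tnks with -0.32, which are not membrane proteins. Of the 47 with neither, 5 rose and 25 fell, within -0.43 for Tcf7 and 0.53 for Nkd2, so that none exceeded 2-fold; with cytosolic scaling 21 of the 47 rose and 2 fell, none by more than 2-fold. The 5 that rose with the standard scaling were Tnks2, Nkd2, Ccdc88c, Tle3 and Crebbp.

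**Figure D5:**
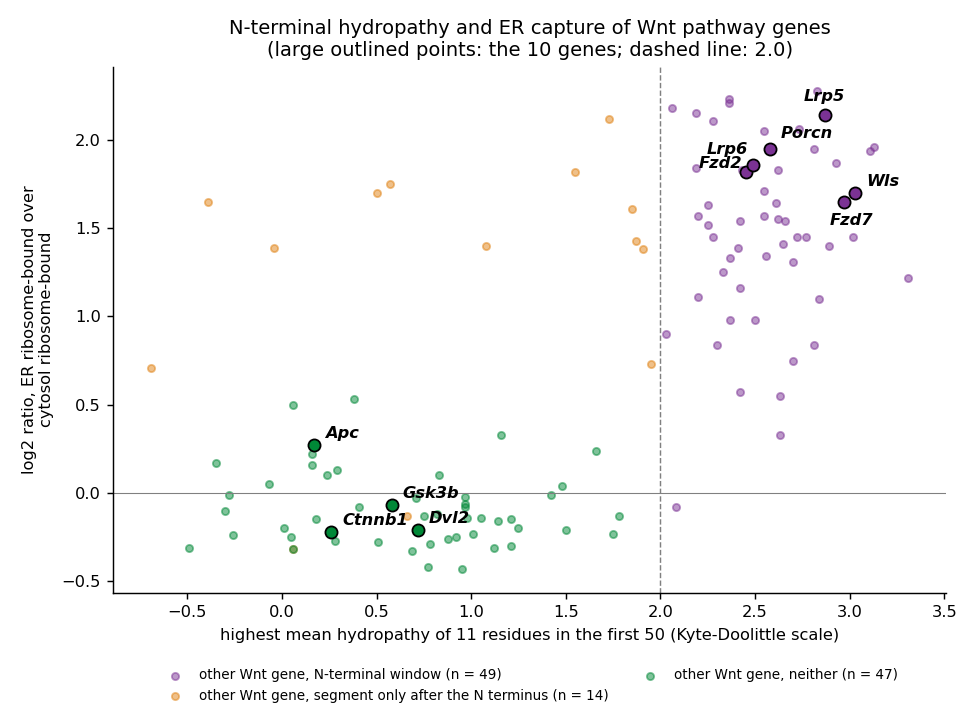
Log2 ratio of ER over cytosol ribosome-bound RNA (vertical axis) against the highest mean Kyte-Doolittle hydropathy of 11 residues within the first 50 (horizontal axis) for the 10 genes (large, outlined) and 110 other tested Wnt pathway genes. The 6 membrane members lie right of the dashed line at 2.0 and between 1.65 and 2.14, the 4 cytosolic members lie left of it and between -0.22 and 0.27, on a scale whose zero moved by 0.25 with scaling on cytosolic genes, and orange points are proteins with hydrophobic segments only after the N terminus.

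Over the 12 libraries, profiles were compared by the root mean square difference of log2 CPM after centring each gene on its own mean, among 11028 genes of at least 5 CPM on average. Between a membrane and a cytosolic member this distance was 0.581 to 0.975, within the membrane members 0.128 (Porcn and Fzd7) to 0.581 (Fzd2 and Lrp6), and within the cytosolic members 0.076 (Gsk3b and Dvl2) to 0.338 (Apc and Dvl2). Lrp6 was thus as far from Fzd2 as from Apc. The genes nearest to Lrp5 were Ptprf, a receptor tyrosine phosphatase, at 0.041, and Uggt1, a folding sensor of the ER, at 0.053, and those nearest to Lrp6 were Abcc1, a membrane transporter, at 0.056 and Tmem209 at 0.081. Porcn was nearest to Fut11 at 0.050 and Ergic1 at 0.054, Wls to Dpp4 at 0.107 and Ptdss1 at 0.11, Fzd2 to Jmjd8 at 0.071 and Srd5a3 at 0.073, and Fzd7 to Srebf1 at 0.053 and Slc35c2 at 0.054. Ctnnb1 was nearest to Sf3b3, a splicing factor, at 0.031 and to Abce1, a ribosome recycling factor, at 0.035. Gsk3b was nearest to Lsm3 at 0.025 and the tubulin gene Tubb5 at 0.033, Dvl2 to Nt5dc2 at 0.038 and Pgpep1 at 0.039, and Apc to Clock at 0.043 and Helz at 0.048. The points of each profile share libraries and scaling, so these distances are descriptions only.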

How the data were processed

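Poly(A) RNA of 12 mouse embryonic stem cell libraries was sequenced as read pairs from a directional kit, per the labels' protocols. The authors deposited raw counts, whole numbers of reads for each Ensembl gene identifier. Per the submitters' processing notes, STAR 2.7.9a, HTSeq 0.11.2, DESeq2 and GRCm39 were used; the sources used here give no annotation release, strand setting or handling of shared reads. Class totals for reads outside genes (8.75% to 12.54% of reads) stayed out of library sizes. Symbols, transcript lengths and coding sequences came from GENCODE M21 on GRCm38, so no coordinates are printed, and 1 coding sequence is not reported here; 52083 of 55416 identifiers matched, and the 3333 others held 0.41% of counts.

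Genes were kept with filterByExpr (16221), scaled by trimmed mean of M values (TMM), and fitted with edgeR 4.0.16 (R 4.3.3) in 1 model of the 4 groups. Each comparison was tested 2-sided by quasi-likelihood, with adjustment by Benjamini-Hochberg across the tested genes and a threshold of 0.05. SE was taken as log2 ratio divided by the root of F, without sign. CPM is TMM-scaled. The biological coefficient of variation was 3.6%. Replicates differed by more than counting noise (chi-square per gene 2.2 to 10.1), and the labels call them biological replicates without naming separate cultures, so a p-value measures the spread between these libraries. Depth of 21.1 to 26.9 M reads in genes sets the precision; errors do not cover PCR amplification. The procedure was run on simulated counts in which few genes changed, up and down alike, so that run could not test the choice of scaling.

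Alternatives were DESeq2 1.42.0, its size factors (RLE), scaling on genes for cytosolic proteins, leaving out mitochondrially encoded genes, no filter, only the libraries compared, a replicate block, and each library left out in turn. The members and lists were chosen with earlier results of these data known. Genes named beside the members are the 3 with the highest mean CPM of each list, tested paralogs, the 2 nearest profiles, and exceptions identified as such.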

Additional observations from a re-analysis of the deposited data

Results flagged for a closer look

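For 9 of the 10 genes, the enrichment of ribosome-bound over whole-cell RNA differed between ER and cytosol targeting in a test of the difference itself (edgeR's quasi-likelihood test, adjusted p under 0.05), which also called 24.8% of all tested genes as higher and 18.6% as lower. The log2 difference, ER minus cytosol, was 1.53 for Wls, 1.95 for Porcn, 1.86 for Fzd2, 1.58 for Fzd7, 2.11 for Lrp5 and 1.77 for Lrp6, with all 3 ER ribosome-bound libraries above all 3 cytosol ribosome-bound libraries in each. It was -0.25 for Ctnnb1, 0.25 for Apc and -0.22 for Dvl2. With scaling on cytosolic genes the signs for Ctnnb1 and Dvl2 turned and neither passed, at 0.02 (adjusted p = 0.78) for Ctnnb1 and 0.05 (adjusted p = 0.57) for Dvl2. Gsk3b did not pass, at -0.05, but passed as higher at 0.22 (adjusted p = 0.0083) with that scaling. The value for Apc was 0.16 (adjusted p = 0.056) without ER ribosome-bound replicate 1.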

How the results depend on the processing

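Of 970 values of the 10 genes under the alternatives, 706 passed the threshold as in the reported fit and with the same sign, 234 missed it in both, 12 passed it newly, 11 lost it and 7 turned in sign where at least 1 of both fits made a call. The sign of a value that missed the threshold in both is not read; between whole-cell groups, for example, Fzd2 ran over -0.16 to 0.03 and Porcn over -0.07 to 0.05. Where the membrane members were called they kept call and sign in every alternative between captures, over ER whole-cell RNA and for the difference of enrichments, and in 118 of 120 values over cytosol whole-cell RNA, where Fzd2 was the exception. Scaling on cytosolic genes, which assumes that these are captured alike, gave 8403 genes higher and 521 lower between captures, 8634 and 2123 for ER ribosome-bound over ER whole-cell RNA, and 6973 and 239 for the difference of enrichments. With it the ratio between captures was 0.02 for Ctnnb1, 0.04 for Dvl2 and 0.18 for Gsk3b, the median of the cytosolic members was 0.11 between captures and 0.13 for the difference of enrichments, the ratio of Gsk3b over ER whole-cell RNA was 0.05, and the differences of enrichments were 0.02 for Ctnnb1, 0.05 for Dvl2 and 0.22 for Gsk3b. Without a filter on low counts, 7 genes were lower between whole-cell groups, and 0 to 2 with 1 library left out. Leaving out each library, the difference of class medians was 1.95 to 2.01 between captures, 1.54 to 1.61 over ER whole-cell RNA, -0.33 to -0.19 over cytosol whole-cell RNA, 0.00 to 0.06 between whole-cell groups and 1.9 to 1.99 for the difference of enrichments.

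Whether replicate numbers pair the samples was not settled: whole-cell and ribosome-bound RNA came from the same lysates, but the labels do not tie a number to a lysate. In their deviations, same-numbered libraries of 1 targeting correlated at -0.01 to 0.26, above 0 in 5 of 6 pairs, and differently numbered ones at -0.26 to 0.06. Libraries of different targetings correlated at -0.27 to 0.24. With a replicate block, 4692 genes were higher and 3945 lower between captures, the difference of class medians was 1.98, and no call of a member changed. The cause of each change was not tested. Ratios are of shares of captured RNA, so a capture-wide change in amount cannot be seen, and Wls, with 110 to 381 counts in a ribosome-bound library, was the least precise member.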

Other observations

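Among the 110 other pathway genes, Chd8, a chromatin remodeller that binds beta-catenin, was chosen after its values were seen because it had the lowest ratio over whole-cell RNA in both captures. It was at 35.8, 35.6 and 33.1 CPM in ER ribosome-bound RNA and 33.4, 31.9 and 32.1 CPM in cytosol ribosome-bound RNA, against 101.1, 102.5 and 100.9 CPM in ER whole-cell RNA and 102.5, 101.0 and 102.7 CPM in cytosol whole-cell RNA. The log2 ratio was -1.54 (SE 0.044) for the ER capture and -1.65 (SE 0.043) for the cytosol capture, and the ratio between captures was 0.10 (SE 0.048, adjusted p = 0.076, edgeR). With scaling on cytosolic genes, Chd8 passed as higher between captures, at 0.35 (adjusted p = 1.8e-07, edgeR). A pair of the pluripotency markers, the Nodal co-receptor Tdgf1 and the growth factor Fgf4, encode proteins that enter the ER. Tdgf1 was at 4489.2, 4982.6 and 4470.1 CPM in ER ribosome-bound RNA, against 1254.6, 1262.3 and 1336.2 CPM in cytosol ribosome-bound RNA, and Fgf4 at 871.6, 902.9 and 871.9 CPM, against 299.3, 301.3 and 314.5 CPM. Their log2 ratios were 1.85 (SE 0.046) for Tdgf1 and 1.53 (SE 0.035) for Fgf4. The ratio of Tdgf1 lay within the range of the 6 membrane members, 1.65 to 2.14, and that of Fgf4 lay below it.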
